A study of Mus musculus with 6 samples.

Results

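The genes Rgs14, Pcp4, Amigo2, Cacng5, Bok, Iyd and Nectin3 are used as markers of the pyramidal neurons of hippocampal areas CA2 and CA3. These 7 genes were taken by symbol from the 52550 gene rows of the count table, and their splicing events were taken by gene symbol from a table of 40961 events. Hippocampal RNA was sequenced in 3 control libraries and 3 libraries labelled as knockdowns of hnRNP DL, an RNA-binding protein whose long isoform is called L-DL. The animals were male C57BL/6 J wild-type mice that received an adeno-associated virus in the CA1 area of both hemispheres at 8 weeks of age. The control virus carried a control shRNA and was given at a higher titre than the other virus, which carried a tandem array of shRNAs against L-DL, each behind an H1 promoter. The viral vector for L-DL shRNA also held a CamkIIα promoter followed by zsGreen to make neurons visible, and the time from injection to RNA extraction is not given in the sources used here. The titles of the controls read WT and name no virus, so their control virus is taken from the study's methods. The labels call the second group a knockdown in the title and a homozygous mutant in the description. They do not state that replicates are separate animals, so that p-values measure the spread between these libraries.

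CA2 is the short stretch of pyramidal cells between CA3 and CA1. CA3 cells receive the mossy fibres of the dentate gyrus and send the Schaffer collaterals to CA1, whereas CA2 cells are known for weak long-term potentiation at these inputs and for a part in social memory. Rgs14, Pcp4, Amigo2 and Cacng5 are mainly used as CA2 markers, and Bok, Iyd and Nectin3 as CA3 markers. Several are also found in other cells, among them Bok and Amigo2.

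The libraries held between 16052529 and 17913064 gene counts. The first principal component of log2 CPM (gene counts scaled to a common library size by edgeR's TMM method) held 59.7% of the variance and separated the groups, and the second, with 19.3%, set replicate 1 of the second group apart from its other libraries. Hnrnpdl, the targeted gene, had 2862, 3120 and 2689 counts in the controls and 3939, 2680 and 2904 in those labelled L-DL KD. Its log2 fold change was 0.03 (SE 0.12, adjusted p = 0.898, edgeR quasi-likelihood test), so the count did not show a fall of the target over all its transcripts, and the second group is called the KD-labelled libraries from here on. Genes were tested if 3 or more libraries held 10 or more counts, and of these 17621 genes 5379 were called at an adjusted p under 0.05, which is 30.5% of them.

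The markers did not move as a group. Bok rose 1.85-fold, Iyd fell by 2.50 and Amigo2 by 0.62 on the log2 scale, whereas Rgs14, Cacng5 and Nectin3 did not pass the test. Of the 6 markers that could be tested on gene counts, 3 were thus called, 1 higher and 2 lower. Among all genes tested, 30.5% were called, 15.6% higher and 15.0% lower. The median log2 fold change was -0.13 over the 6 markers and 0.01 over all genes tested. The median of the markers was -0.28 without KD-labelled replicate 1 and 0.005 without KD-labelled replicate 3. Pcp4 had too few gene counts for the test, and reads across its splice junctions are given further on. The CPM of control and KD-labelled libraries did not overlap for the 3 called markers, as for 47.2% of all genes tested, 23.8% higher and 23.4% lower. In RNA of whole hippocampus, fewer cells of a type and less RNA per cell cannot be told apart.

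**Figure D1:**
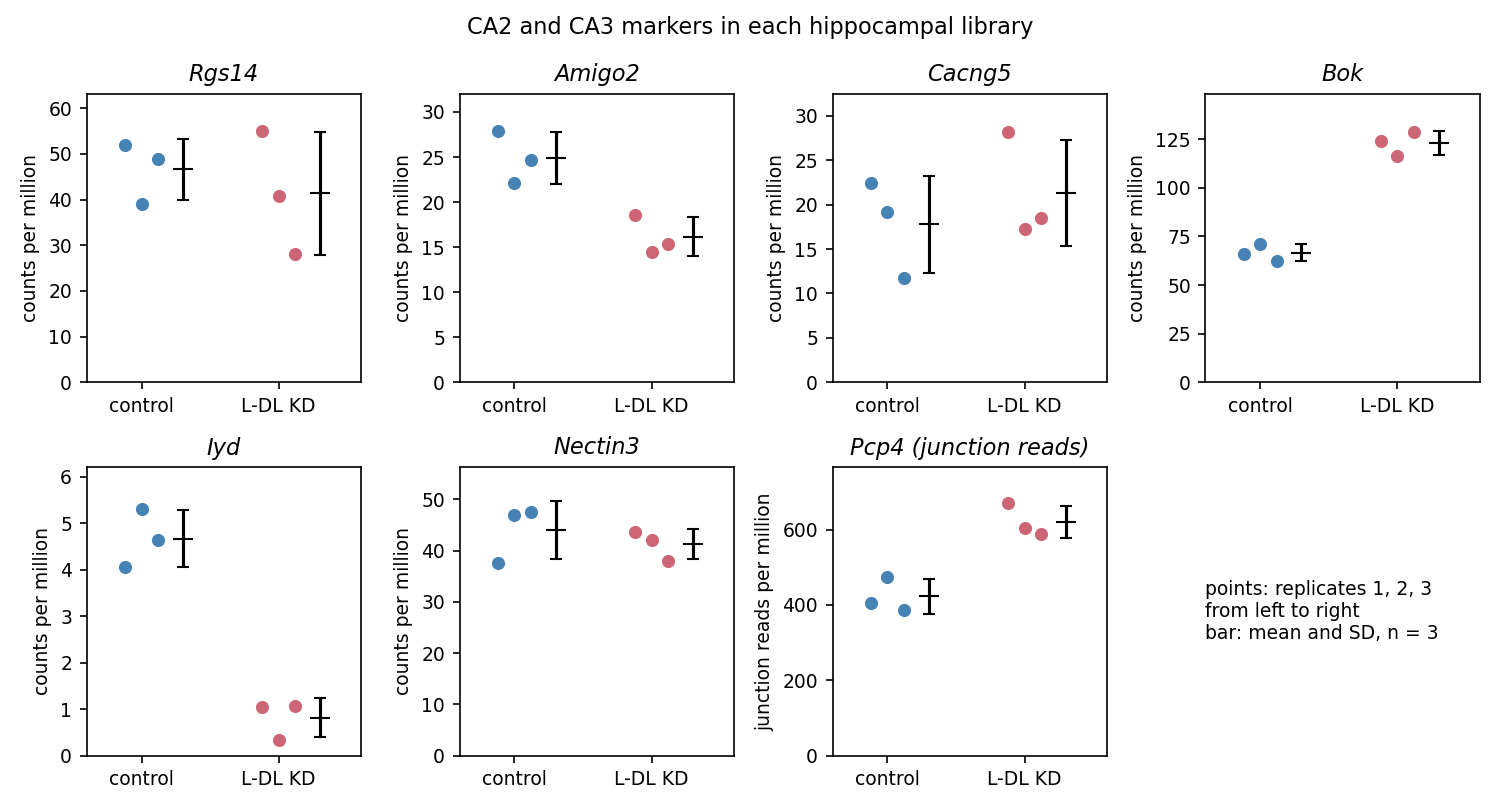
CPM of 6 markers by gene counts and, for Pcp4, scaled junction reads, in each control and KD-labelled library (vertical axes start at 0; points are replicates 1 to 3 from left to right, bars are mean and SD, n = 3). Bok and Pcp4 lie higher and Amigo2 and Iyd lower in every KD-labelled library, and the groups overlap for Rgs14, Cacng5 and Nectin3.

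In the controls, the level per kilobase of exon, which can be compared between genes, was highest for Bok among the 6 markers with usable gene counts, which leave out Pcp4, with 36.2 ± 2.38 CPM per kb (SD, n = 3). Rgs14 followed with 11.002 ± 1.58 CPM per kb and Amigo2 with 7.87 ± 0.927 CPM per kb. The next were Cacng5 with 4.64 ± 1.43, Nectin3 with 3.45 ± 0.443 and Iyd with 2.88 ± 0.379 CPM per kb. Neighbours from Cacng5 down differed by less than the sum of their SDs. In the KD-labelled libraries the order was Bok with 66.9 ± 3.32, Rgs14 with 9.76 ± 3.18, Cacng5 with 5.57 ± 1.56, Amigo2 with 5.10 ± 0.681, Nectin3 with 3.23 ± 0.229 and Iyd with 0.504 ± 0.257 CPM per kb. The exon lengths were those of all annotated transcripts together, so a level per kilobase is low for a gene with long or rarely used exons, as for the 12747 exonic bases of Nectin3.

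Among the markers of CA3, Iyd encodes iodotyrosine deiodinase, an enzyme best known for recovering iodide in the thyroid (ENSMUSG00000019762, GRCm38 chr10:3540240-3554877, plus strand). It had 66, 90 and 73 counts in the controls and 19, 6 and 18 counts in the KD-labelled libraries. Every KD-labelled library lay below every control, and replicate 2 was the lowest. The mean was 4.67 ± 0.614 CPM in the controls and 0.819 ± 0.418 CPM in the KD-labelled libraries (SD, n = 3). The change on the log2 scale was -2.50 (SE 0.39, 95% interval -3.40 to -1.60, adjusted p = 0.00262, edgeR), or 5.67-fold lower. Only 0.159% of the tested genes had a lower log2 fold change. Iyd was the least abundant of the tested markers, and its change rests on at most 90 counts a library.

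Bok encodes a BCL-2 family protein of the endoplasmic reticulum (ENSMUSG00000026278, GRCm38 chr1:93685660-93695764, plus strand). It had 1071, 1210 and 984 counts in the controls and 2255, 2079 and 2159 counts in the KD-labelled libraries. The groups were far apart and the spread within each was small, with coefficients of variation of 6.58% and 4.97%. The mean rose from 66.6 ± 4.38 to 123 ± 6.12 CPM (SD, n = 3). This gave a log2 fold change of 0.89 (SE 0.08, 95% interval 0.71 to 1.06, adjusted p = 0.000243, edgeR). Reads across the junctions of Bok exon 2, a readout added after the gene counts were seen, were 473, 534 and 416 in the controls and 1012, 951 and 933 in the KD-labelled libraries. Their log2 fold change was 0.91 (SE 0.10, adjusted p = 3.2e-05, edgeR over 8965 genes). Of these genes, 21.0% were called on junction reads, 10.6% higher.

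Nectin3 encodes a cell adhesion molecule of the immunoglobulin superfamily found at synapses and adherens junctions (ENSMUSG00000022656, GRCm38 chr16:46387706-46498525, minus strand). It had 608, 799 and 748 counts in the controls and 791, 751 and 637 counts in the KD-labelled libraries. The groups overlapped, with 43.99 ± 5.65 CPM in the controls and 41.2 ± 2.91 CPM in the KD-labelled libraries. On the log2 scale the change was -0.09 (SE 0.11, 95% interval -0.35 to 0.16, adjusted p = 0.563, edgeR).

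Among the markers of CA2, Amigo2 encodes a leucine-rich repeat adhesion molecule (ENSMUSG00000048218, GRCm38 chr15:97244125-97247287, minus strand). It had 453, 375 and 389 counts in the controls and 337, 258 and 258 counts in the KD-labelled libraries. All KD-labelled libraries lay below all controls. The mean was 24.9 ± 2.93 CPM in the controls and 16.1 ± 2.15 CPM in the KD-labelled libraries. The log2 fold change was -0.62 (SE 0.14, 95% interval -0.95 to -0.30, adjusted p = 0.0122, edgeR), and without control replicate 1, the highest control, it was -0.54 with an adjusted p of 0.0546. Exons of Pced1b on the opposite strand share 58 of its 3163 exonic bases.

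Rgs14 encodes a scaffold of G protein and MAP kinase signalling that is known to restrain plasticity in CA2 (ENSMUSG00000052087, GRCm38 chr13:55369732-55384687, plus strand). It had 843, 665 and 769 counts in the controls and 1000, 729 and 472 counts in the KD-labelled libraries. KD-labelled replicate 1 was the highest and replicate 3 the lowest of all 6 libraries in CPM, at 55.1 and 28.1. The mean was 46.6 ± 6.69 CPM in the controls and 41.4 ± 13.5 CPM in the KD-labelled libraries. The change on the log2 scale was -0.17 (SE 0.22, 95% interval -0.68 to 0.34, adjusted p = 0.601, edgeR), and without KD-labelled replicate 3 it was 0.046.

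Cacng5 encodes an auxiliary subunit of AMPA receptors (ENSMUSG00000040373, GRCm38 chr11:107874605-107915055, minus strand). It had 364, 326 and 185 counts in the controls and 512, 308 and 311 counts in the KD-labelled libraries. Control replicate 3 was low and KD-labelled replicate 1 high, so the groups overlapped. The other controls, at 22.4 and 19.2 CPM, lay above the other KD-labelled libraries, at 17.3 and 18.5 CPM. The mean was 17.8 ± 5.48 CPM in the controls and 21.3 ± 5.98 CPM in the KD-labelled libraries. This gave a log2 fold change of 0.26 (SE 0.27, 95% interval -0.35 to 0.87, adjusted p = 0.496, edgeR), and it lay between 0.01 and 0.46 with each library left out in turn.

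**Figure D2:**
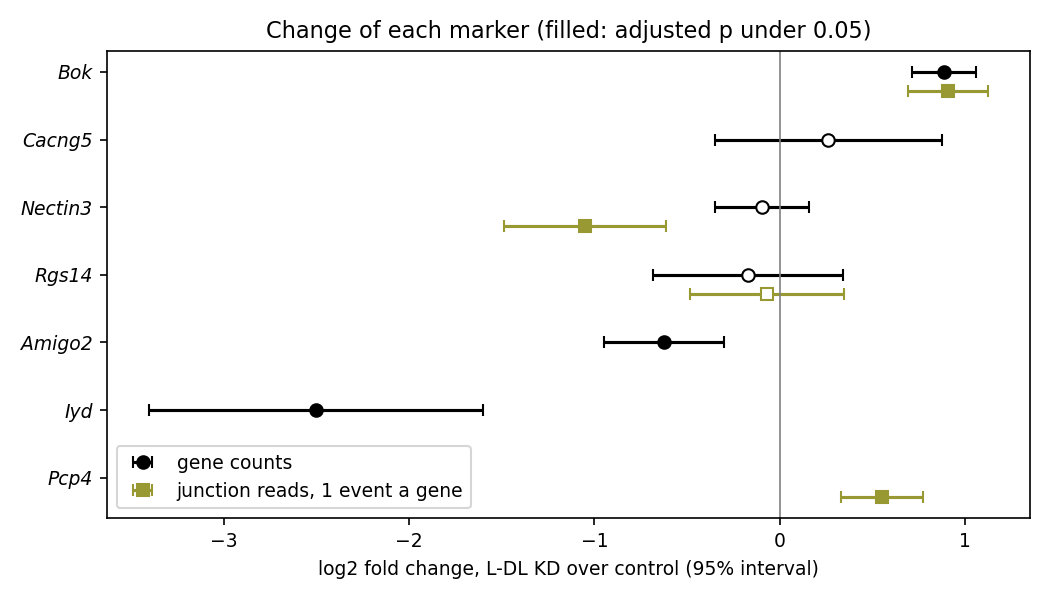
Log2 fold change of each marker, KD-labelled over control libraries, with its 95% interval, from gene counts (circles) and from junction reads of the exon skipping event with most reads (squares). Filled symbols have an adjusted p under 0.05. Gene counts and junction reads lie close together for Bok and Rgs14 and apart for Nectin3, whose event covers 1 of its endings, and Pcp4 has junction reads only.

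Pcp4 encodes a small protein that binds calmodulin and speeds its exchange of calcium (ENSMUSG00000090223, GRCm38 chr16:96467606-96525793, plus strand). Its gene counts were 2, 7 and 0 in the controls and 6, 4 and 4 in the KD-labelled libraries, too few for the filter. The splicing table, however, held 8065 reads across the junctions of Pcp4 exon 2, so that the gene counts came to 0.285% of the junction reads. The same share had a median of 512% over 4774 genes with at least 600 junction reads, and 46 of these genes lay under 1%. In the GENCODE M21 annotation, exons of Igsf5 on the same strand (ENSMUSG00000117081, GRCm38 chr16:96361794-96525580) share 243 of the 641 bases of transcript Pcp4-201, with 1 of its 3 exons wholly inside. The authors counted reads on an earlier Ensembl annotation, and the part of this overlap in the low gene count was not tested. The low gene count is therefore not given as a low level of Pcp4. Exon 2 of Pcp4-201, the exon that carries these reads (GRCm38 chr16:96493816-96493867, plus strand), is shown in capitals, with the coding end of exon 1 and the start of exon 3 in lower case, from the GENCODE M21 transcript.
Pcp4 exon 2: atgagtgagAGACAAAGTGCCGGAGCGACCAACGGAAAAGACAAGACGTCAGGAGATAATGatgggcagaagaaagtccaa

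Reads across the junctions of this exon numbered 999, 1200 and 910 in the controls and 1819, 1676 and 1461 in the KD-labelled libraries. All KD-labelled libraries lay above all controls, and the share of genes that did so on junction reads was not counted. Scaled to library size like CPM, the mean rose from 422 ± 46.4 to 620 ± 43.5 (SD, n = 3), with a log2 fold change of 0.55 (SE 0.10, 95% interval 0.33 to 0.77, adjusted p = 0.00168, edgeR), or 1.47-fold. The log2 fold change lay between 0.48 and 0.64 with each library left out in turn. Over the 8965 genes with this readout, 21.0% were called, 10.6% higher. The readout was chosen after the values had been seen. Nearly all reads included the exon, with 1 skipping read in the controls and 2 in the KD-labelled libraries.

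The splicing table listed 9 events for Rgs14, 3 for Nectin3, 2 for Bok and 1 for Pcp4, and none for Amigo2, Cacng5 and Iyd. Only events with on average 20 or more counts in a library, and 1 or more of either form, were tested. This left 3 events of Rgs14, of which 0 passed an adjusted p under 0.05 in edgeR and 1 had an unadjusted p under 0.05. Over all 18829 events tested in edgeR, 0.255% passed and 13.3% had an unadjusted p under 0.05. With limma 0 of the Rgs14 events passed, but so did 0 of all events. The event with the smallest p was the skipping of Rgs14 exon 2, an exon of 22 bases (GRCm38 chr13:55378007-55378028, plus strand). The exon is in capitals and the ends of exons 1 and 3 of transcript Rgs14-201 (GENCODE M21) are in lower case in the form with the exon, and the second line shows both neighbours joined without it.
Rgs14 exon 2 included: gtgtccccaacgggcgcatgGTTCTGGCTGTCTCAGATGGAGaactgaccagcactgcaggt
Rgs14 exon 2 skipped: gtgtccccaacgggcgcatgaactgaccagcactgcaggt

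From the annotated start codon, the form with exon 2 runs for 547 codons, whereas the form without it meets a stop codon after 16 codons. Inclusion reads of exon 2 were 147, 101 and 125 in the controls and 156, 113 and 84 in the KD-labelled libraries. Skipping reads were 0, 0 and 0 in the controls and 2, 8 and 1 in the KD-labelled libraries. PSI, the share of the form with the exon after division by effective lengths, was thus 1.0 in every control, and 0.986, 0.925 and 0.987 in the KD-labelled libraries. The PSI change was -0.034 and its adjusted p was 0.247 (edgeR; unadjusted p = 0.0117), so the change did not pass over all events. KD-labelled replicate 2 held 8 of the 11 skipping reads. Without it the PSI change was -0.014, and the event no longer had the coverage to be tested, so the tested event rests on that library.

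The 2 other tested events of Rgs14 were pairs of exons scored as mutually exclusive. For exons 2 and 3, PSI was 0.094 ± 0.012 in the controls and 0.080 ± 0.014 in the KD-labelled libraries (adjusted p = 0.887, edgeR). For exons 13 and 14, PSI was 0.365 ± 0.040 and 0.391 ± 0.048 (adjusted p = 0.943, edgeR).

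Skipping reads of Rgs14 were also counted over all its distinct skipping junctions, a count made after the events had been seen. It had 6 such junctions, and all 6 had reads in the KD-labelled libraries and none in the controls. Every exon skipping event listed for the markers had a skipping read in some library. A junction without control reads was thus seen only through the KD-labelled libraries, and the shares and test below are descriptions only. The sums were 9, 14 and 4 reads in the KD-labelled libraries and 0 in each control. As a share of the gene's counts this was 0.900%, 1.92% and 0.847%, against 0 in the controls, where 0 reads allow shares of up to 0.356%, 0.451% and 0.390% (3 counts, counting error only). The exact permutation test gave p = 0.1 (two-sided, n = 3), the smallest that this design allows. The junction from exon 1 to exon 3 held 11 of the reads, those from exon 1 to exon 4 and from exon 12 to exon 14 held 5 each, and the others held between 1 and 3 reads.

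Skipping reads were also more numerous in the KD-labelled libraries in general. Of 26075 skipping junctions with a read, 27.4% had none in the controls and 20.3% had none in the KD-labelled libraries. Of 4964 genes with at least 20 skipping reads, 9 had none in the controls and 0 had none in the KD-labelled libraries. For 920 genes with at least 6 skipping junctions, these numbers were 1 and 0. Rgs14, with 27 reads and 6 junctions, is in both counts, and both limits lie at or under its own values. Over all genes, skipping reads made up 6.38 to 6.41% of the junction counts in the controls and 6.65 to 6.86% in the KD-labelled libraries, which also held more junction counts, 7153540 to 7939931 against 6760349 to 7089670. In the other markers, skipping reads were 2 against 1 for Bok and 1 against 3 for Nectin3, controls first.

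**Figure D3:**
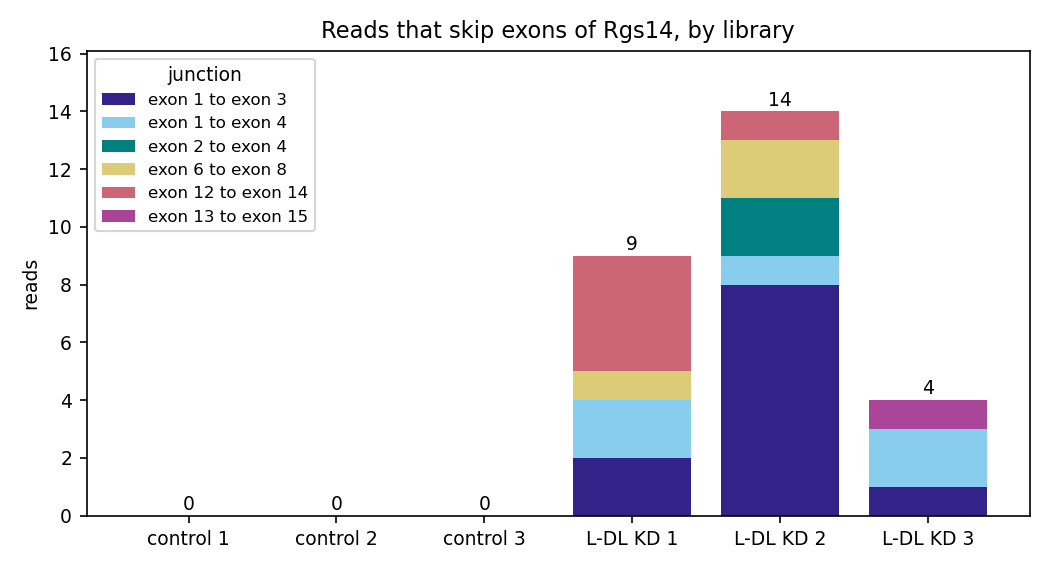
Reads that skip exons of Rgs14, in each library, stacked by junction (vertical axis: reads; the number above a bar is its sum). The controls hold 0 reads each and the KD-labelled libraries 9, 14 and 4.

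Nectin3 exon 5 (GRCm38 chr16:46454624-46454775, minus strand) can be joined to either of 2 exons. In Nectin3-201 it joins the last exon at chr16:46447169-46448968, and in Nectin3-202 an exon further downstream at chr16:46437930-46438068. Both junctions are shown from the GENCODE M21 transcripts, with the end of exon 5 in lower case and the first 20 bases of the next exon, which tell the forms apart, in capitals.
Nectin3 exon 5 to exon 6 of Nectin3-201: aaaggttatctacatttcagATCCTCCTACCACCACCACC
Nectin3 exon 5 to exon 6 of Nectin3-202: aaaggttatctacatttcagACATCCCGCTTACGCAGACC

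Reads of the form that ends as Nectin3-201 were 109, 140 and 129 in the controls and 80, 68 and 50 in the KD-labelled libraries. Reads of the form that goes on as Nectin3-202 were 71, 88 and 76 in the controls and 72, 83 and 42 in the KD-labelled libraries. The former lay apart between the groups and the latter overlapped. The count at the Nectin3-201 form made up 60.6%, 61.4% and 62.9% of both counts in the controls and 52.6%, 45.0% and 54.3% in the KD-labelled libraries. The means were 61.6% ± 1.20 and 50.7% ± 4.96 (SD, n = 3; exact permutation p = 0.1, two-sided, the smallest possible). Each count includes the reads that join exon 5 to exon 4, which both forms share. The percentages are therefore shares of these counts and not of the forms.

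The comparison of endings was chosen after these values had been seen, and it was tested over all 2366 pairs of exon skipping events that share an exon and 1 neighbour. The log2 ratio of the counts, which both hold the shared reads, changed by -0.68 (SE 0.15, unadjusted p = 0.00171, adjusted p = 0.0966, edgeR). It did not pass over all pairs, of which 0.972% passed and 7.35% had an unadjusted p under 0.05. With each library left out, the change lay between -0.77 and -0.50. The junction readout of the gene as a whole depended on the event. The event with most reads, that of the Nectin3-201 form, gave a log2 fold change of -1.05 (SE 0.21, adjusted p = 0.00226, edgeR). All reads of the event at the Nectin3-202 form came to 236 in the controls and 197 in the KD-labelled libraries, and those at exon 3 to 252 and 226.

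**Figure D4:**
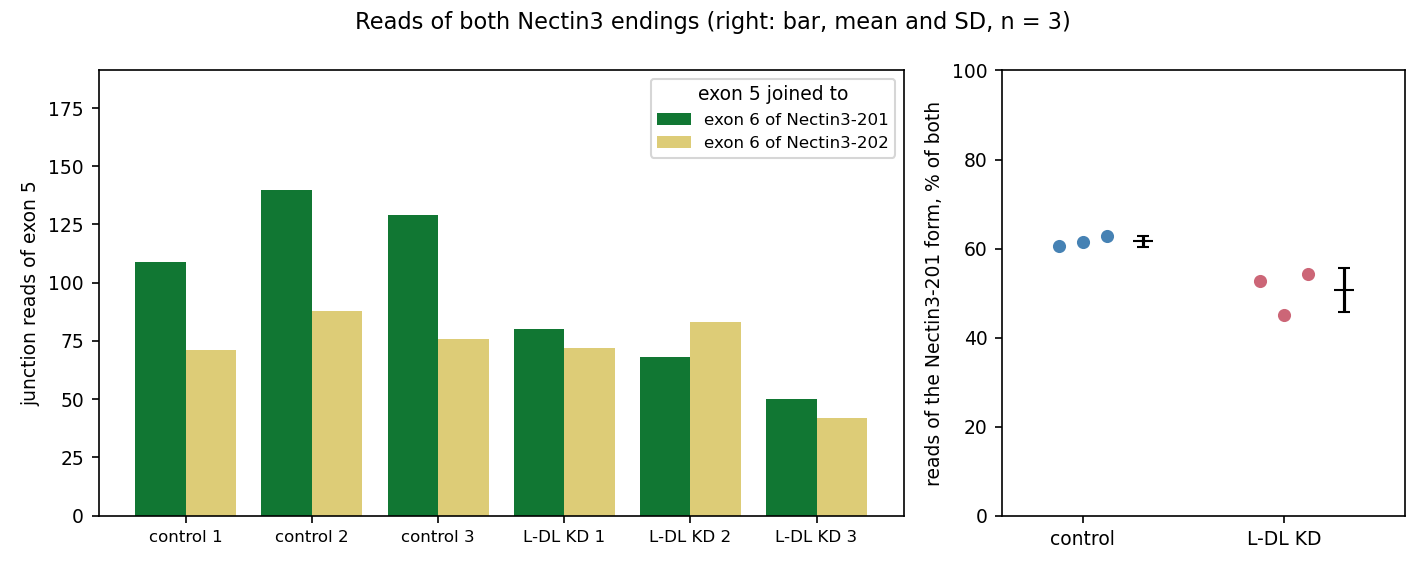
Left: junction reads of Nectin3 exon 5 by library, for the form joined to exon 6 of Nectin3-201 and that joined to exon 6 of Nectin3-202. Right: reads of the Nectin3-201 form in percent of both (points are libraries, bars mean and SD, n = 3), between 60.6 and 62.9% in the controls and between 45.0 and 54.3% in the KD-labelled libraries.

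Other genes of the same areas were also mixed in direction. Of 8 other CA2 genes 7 were tested, with 1 higher and 2 lower, against 15.6% and 15.0% of all genes tested. Their median log2 fold change was -0.09, against 0.01. This median was -0.37 without KD-labelled replicate 1 and 0.03 without KD-labelled replicate 3. The largest values were those of Fgf2, a growth factor, with 0.61 (adjusted p = 0.0409), and of Ntf3, a neurotrophin, with 0.18 (adjusted p = 0.723). The smallest were those of Actn2, an actin crosslinker, with -1.42 (adjusted p = 0.00155), and of Sostdc1, a secreted antagonist of BMP and Wnt signals, with -0.62 (adjusted p = 0.707). Sostdc1 is also a choroid plexus gene, and it varied by library with Ttr, the transthyretin gene, which had between 372 and 4183 CPM in the controls and between 13.9 and 4689 CPM in the KD-labelled libraries. All of these adjusted p-values are from edgeR.

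Of 9 other CA3 genes, 1 was higher and 3 were lower, or 4 called beside 30.5% of all genes, with a median log2 fold change of -0.35. St18, a zinc finger factor also known from oligodendrocytes, had the largest value with 0.997 (adjusted p = 0.00428), followed by Nnat with 0.07 (adjusted p = 0.759). Cpne4, a copine that binds phospholipids with calcium, had the smallest with -1.44 (adjusted p = 0.000289), followed by Cdh24, a cadherin, with -1.31 (adjusted p = 0.00133). The oligodendrocyte markers had a median of 0.18, with 1 of 6 higher. This median was 0.01 without KD-labelled replicate 1 and 0.37 without KD-labelled replicate 3. The part of these markers in the value of St18 was not tested.

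The relatives and partners of the markers, 31 genes in all, had 8 higher and 9 lower members, beside 15.6% and 15.0% of all genes, and a median of -0.13. Rgs10, a relative of Rgs14 known from microglia, had the largest log2 fold change with 0.99 (adjusted p = 0.00058), followed by Nectin2 with 0.96 (adjusted p = 0.00704). Dio3, a deiodinase of thyroid hormone, had the smallest with -1.51, which did not pass (adjusted p = 0.0927) at 0.822 CPM in the controls, followed by Cacng2, the AMPA receptor subunit stargazin, with -1.07 (adjusted p = 0.000238). The relatives of Cacng5 among them fell where they were called, with Cacng3 at -0.84 (adjusted p = 0.00362), Cacng8 at -0.72 (adjusted p = 0.00445) and Cacng7 at -0.41 (adjusted p = 0.00485, edgeR), whereas Cacng4 had 0.12 (adjusted p = 0.539).

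The markers of neighbouring fields and of other cell types are given beside these values. Among all genes tested, 30.5% were called, 15.6% higher and 15.0% lower, and several of the lists lie near these shares. Of 8 CA1 markers 6 were lower and 0 higher, with a median log2 fold change of -0.99. Of 8 dentate granule cell markers 4 were lower and 1 higher, with a median of -0.74. All 6 pan-neuronal markers were lower, and their summed level was 3750 to 3955 CPM in the controls and 1981 to 2436 CPM in the KD-labelled libraries. All 8 microglia markers were higher, with a summed level of 1122 to 1399 CPM in the controls and 2377 to 3022 CPM in the KD-labelled libraries. Astrocyte markers had 1 higher and 3 lower of 6, endothelial markers 3 higher of 6, interneuron markers 4 lower of 6, markers of glutamatergic neurons 5 lower of 6, choroid plexus markers 0 called of 4, and thalamus and cortex markers 1 higher and 2 lower of 7. The part of any of these in the changes of the CA2 and CA3 markers was not tested.

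**Figure D5:**
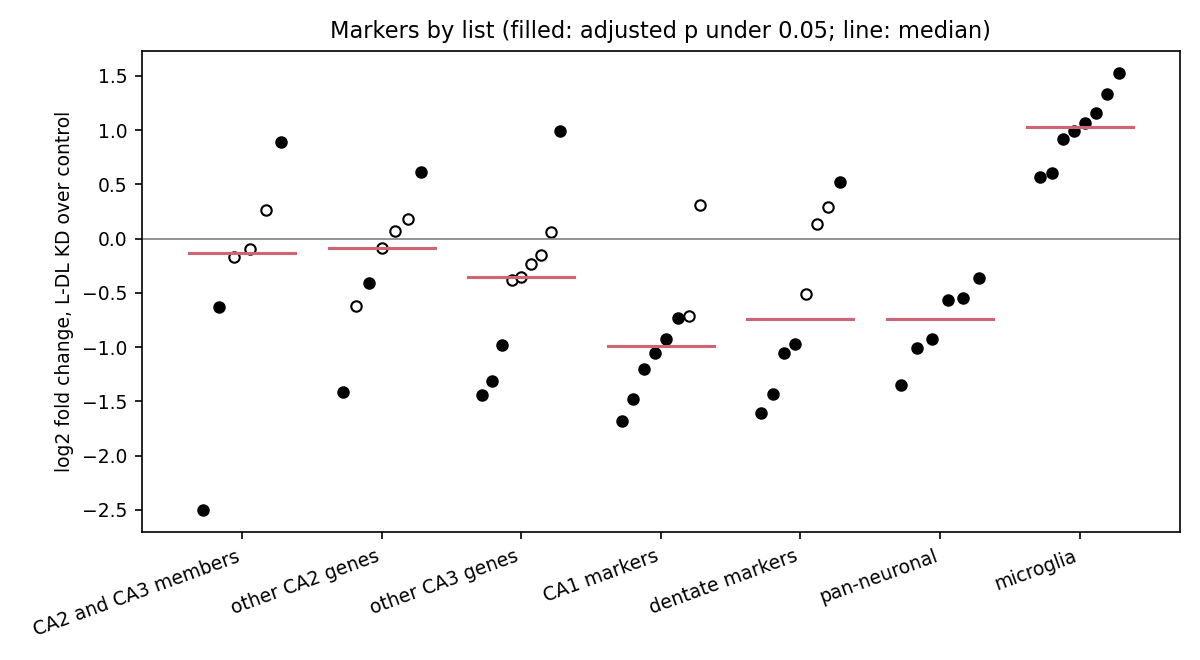
Log2 fold change (KD-labelled over control libraries) of each tested gene by list (filled: adjusted p under 0.05, line: median of the list). The CA2 and CA3 markers and the other genes of these areas lie on both sides of 0, while all pan-neuronal markers lie below 0 and all microglia markers above it.

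Each marker was also set against the summed pan-neuronal markers of the same library, a scale added after the values had been seen. Since this sum fell in every KD-labelled library, the scale moves all genes upward there, and 75.1% of all genes tested lay higher and 2.02% lower without overlap. The share of markers that lie higher on it is therefore no result about them. Per 1000 CPM of the sum, Iyd was still lower, at 1.21 ± 0.189 in the controls and 0.371 ± 0.206 in the KD-labelled libraries. Amigo2 overlapped, at 6.42 ± 0.640 and 7.17 ± 0.897 (SD, n = 3; exact permutation p = 0.3, two-sided). Bok, Cacng5, Nectin3 and Rgs14 lay higher without overlap, as did most genes.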

How the data were processed

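Poly(A) RNA of hippocampus, in 3 control libraries and 3 labelled L-DL KD, had been sequenced as 150 nt read pairs and aligned to GRCm38 (Ensembl release 90). The authors deposited unscaled read counts for Ensembl genes and the junction read counts of rMATS with effective lengths, whose p-values and PSI differences are the authors' own comparison and were not used in any result. The submitters' processing notes name Bowtie (1.1.2), HISAT2 (2.1.0) and HTSeq (0.6.1) without roles, and whether counting used strand is not given in the sources used here. Which junction columns belong to the KD-labelled libraries followed from the definition of the PSI change in the study's methods. It was checked once against the sign of the deposited difference column, and against the gene counts, where each entry correlated best (r from 0.832 to 0.900 over 7830 genes) with the library of its own group and number.

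Gene counts were given TMM factors and tested in edgeR (4.0.16, R 4.3.3), with Benjamini-Hochberg adjustment over the genes that held 10 or more counts in 3 or more libraries. SEs are the log2 fold change over the root of F. Inclusion and skipping counts were tested with edgeR in 2 columns a library, with library, inclusion and group by inclusion effects. edgeR was run with its older quasi-likelihood setting (legacy), as in an earlier analysis of these data. This was settled after both settings had been run and had called 48 and 421 of 18829 splicing events. In simulated data the splicing test recovered no changed event at a moderate shift. It recovered changed events only after the simulation had been given a larger shift and less noise, so an event that did not pass is no evidence that it did not change. Alternatives were DESeq2 (1.42.0), limma (3.58.1, pseudocount 0.5), library size scaling, other filters on low counts, a block for the replicate number, and fits without 1 library. Exact permutation tests used scipy (1.17.1) in Python (3.11.15). Replicate numbers did not pair the libraries (correlations of deviations 0.067, 0.179 and -0.163).

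The markers, lists and rules were chosen with earlier results of these data known. All 7 markers are named, with the tested event of smallest p per gene, and the 2 largest and 2 smallest log2 fold changes of the lists of other CA2 genes, other CA3 genes and relatives. Other called relatives of Cacng5, the Nectin3 endings, the junction readout, the Rgs14 junction sums, Ttr and the scale per pan-neuronal CPM were chosen after values had been seen. Sequences and coordinates are from GENCODE M21 (GRCm38).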

Additional observations from a re-analysis of the deposited data

How the results depend on the processing

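Of 112 log2 fold changes of the markers under alternatives, 108 kept their direction and their side of the threshold (direction only where DESeq2 gave no adjusted p), 1 lost its call and 3 changed sign. Amigo2 lost its call without control replicate 1. The log2 fold change of Rgs14 was 0.046 without KD-labelled replicate 3 and ranged from -0.43 to 0.046 with each library left out. That of its junction reads was 0.07 without control replicate 1 and 0.11 without KD-labelled replicate 3, and ranged from -0.25 to 0.11. With each library left out, 2 to 3 markers were called, 3 to 4 did not overlap, and 3498 to 6477 genes were called in all. A group with fewer libraries lies apart more easily, and the share of all genes without overlap was not counted there. The replicate block, which the numbers do not bear out as a pairing, called 4635 genes and the same number of markers, 3. Splicing events called were 48, but 421 with edgeR's newer quasi-likelihood setting, 0 with limma and 0 to 52 with each entry left out, and the cause was not tested. The number of marker events called was 0 under each of these, and without KD-labelled entry 2 the Rgs14 exon 2 event was too poorly covered to be tested. The newer setting, tried after seeing the data, called 5425 genes. Pairs of events called were 23, but 0 with limma and 2 to 12 with each entry left out. The adjusted p of the Nectin3 endings ranged from 0.0893 to 0.502 over its alternatives. Depth limits Iyd, with 6 to 90 counts, and the skipping reads of Rgs14, with at most 14 a library.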

Other observations

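Over the 6 libraries, the genes whose log2 CPM (pseudocount 1) was most like that of Rgs14 among 16118 genes were Dbn1 (Pearson r = 0.995), Gm20636 (r = 0.993) and Tbcc (r = 0.993). Those most like Nectin3 were Gm29650 (r = 0.984), Glra3 (r = 0.975) and BC024063 (r = 0.968). With 6 points and as many genes, high values arise readily, and the libraries share depth and group, so these are descriptions only. Among the markers, Amigo2 and Iyd had r = 0.895, and both were opposite to Bok (r = -0.904 and -0.925), over libraries of both groups together. These are the markers called between the groups, so that difference enters the values, and values within a group were not computed. Of the CA2 markers, Rgs14 and Amigo2 had r = 0.586, Rgs14 and Cacng5 r = 0.237, and Amigo2 and Cacng5 r = -0.095.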
